A study of Mus musculus with 3 samples.

Results

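The comparison described here set the miRNAs of tibialis anterior (TA) muscle taken 3 days after injury against those of uninjured muscle. The members were all 1138 mature miRNAs listed for both libraries, and their reads were divided by the total of each library to give CPM (counts per 1000000 reads of the library). The mice of both groups were wild type C57BL/6 at 10 weeks of age. The muscles of the day 3 group had been injured by cardiotoxin (CTX), a cobra venom protein that lyses myofibers and spares the stem cells beneath them. The labels name saline as the control injection, without saying whether the day 0 muscles received it. For each day, RNA from 4 samples was combined in 1 library of RNAs of 18 to 30 nt, sequenced on the BGISEQ platform. There was thus no replicate check, differences among mice could not be measured, no p-value is given, and "higher" and "lower" below compare 1 library with 1 library. A day 1 library was made in the same way and is given beside the others as values only, because both injured days share the day 0 library.

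Mature miRNAs are cut from a hairpin precursor, whose 5p and 3p arms can each be loaded into Argonaute, and they lower the translation and stability of mRNAs that pair with the seed, bases 2 to 8 of the miRNA. Skeletal muscle fibers are rich in miR-1 and miR-133a, which act in the differentiated fiber, whereas miR-206 and miR-133b are made from a separate locus that is active in differentiating myoblasts and regenerating fibers. After CTX, dead fibers are cleared by infiltrating leukocytes while satellite cells proliferate and then fuse, so that the tissue changes in its cell types as well as in its transcripts. In pooled tissue RNA, fewer cells of a type and less of a miRNA per cell cannot be told apart.

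Sequences of miRNAs that the results turn on are printed here with the seed in capitals, as the RefSeq annotation of GRCm38.p6 gives them. RefSeq entries were matched for 953 of the 1138 names and for 471 of the 569 miRNAs with at least 10 reads in 1 of the 2 libraries. The first set holds miRNAs that took over reads on day 3, with both arms of the miR-206 and miR-133b locus and miR-22-3p, which lost reads, for contrast. miR-1a-3p and miR-378a-3p, which with miR-22-3p lost the most reads, are not printed.
miR-206-3p: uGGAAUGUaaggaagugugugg
miR-206-5p: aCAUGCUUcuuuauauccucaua
miR-133b-3p: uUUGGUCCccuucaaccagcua
miR-133b-5p: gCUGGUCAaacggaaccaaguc
miR-21a-5p: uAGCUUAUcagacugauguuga
miR-34a-5p: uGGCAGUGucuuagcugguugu
miR-449a-5p: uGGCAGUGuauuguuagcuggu
miR-31-5p: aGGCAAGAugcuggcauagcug
miR-222-3p: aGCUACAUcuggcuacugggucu
miR-22-3p: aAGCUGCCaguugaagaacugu

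The let-7 miRNAs share the seed GAGGUAG and differ in a few of the remaining bases, and both arms of the let-7i hairpin are shown because they moved apart.
let-7a-5p: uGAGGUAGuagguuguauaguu
let-7c-5p: uGAGGUAGuagguuguaugguu
let-7d-5p: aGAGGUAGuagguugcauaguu
let-7f-5p: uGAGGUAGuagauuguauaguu
let-7i-5p: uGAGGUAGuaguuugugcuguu
let-7i-3p: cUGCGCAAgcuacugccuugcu

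The last set holds miRNAs that share a seed but differed in their ratio, namely the AGCACCA seed of miR-29, the CCCUGAG seed of miR-125 and miR-351, and the AGCAGCA seed of the miR-15 group.
miR-29a-3p: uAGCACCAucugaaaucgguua
miR-29b-3p: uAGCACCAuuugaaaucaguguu
miR-29c-3p: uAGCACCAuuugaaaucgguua
miR-125b-5p: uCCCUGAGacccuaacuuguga
miR-125a-5p: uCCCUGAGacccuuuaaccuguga
miR-351-5p: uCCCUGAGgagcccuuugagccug
miR-15b-5p: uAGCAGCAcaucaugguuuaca
miR-16-5p: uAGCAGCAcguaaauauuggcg
miR-195a-5p: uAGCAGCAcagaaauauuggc
miR-322-5p: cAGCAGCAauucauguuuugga

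The libraries held 8507580 reads on day 0 and 9795076 on day 3, beside 6421056 on day 1. The number of miRNAs with any read was 784 on day 0 and 987 on day 3. The floor of detection, 3 reads, stood at 0.353 CPM before injury and 0.306 CPM on day 3. The labelled tissue matched its markers on day 0, where the list of 6 myofiber miRNAs held 26.1% of the reads, and no marker miRNA of any cell type listed was at 0 in either library. On day 3 the myofiber list held 9.59% and the 2 myoblast markers held 18.2%, up from 1.36%. The 7 leukocyte markers held 0.549% on day 0 and 1.00% on day 3, the 3 erythroid markers 0.715% and 1.26%, and the 3 stromal markers 0.202% and 0.624%. The 7 epithelial markers, which muscle should hold little of, summed to 28.9 CPM before injury and 154 CPM on day 3. The part of these cell types in the changes below was not tested.

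Of the 569 miRNAs with at least 10 reads in 1 of the 2 libraries, 333 (58.5%) were 2-fold or more higher on day 3 and 57 (10.0%) were 2-fold or more lower, while 179 lay between. The ratio was above 1 for 437 and below 1 for 132, and the median log2 ratio was 1.47 (quartiles 0.12 and 2.82). The changes were often large, with 214 miRNAs at least 4-fold higher and 64 at least 16-fold higher, against 18 at least 4-fold lower and 3 at least 8-fold lower. This balance moved with the scaling. Factors from edgeR's TMM lowered every log2 ratio by 1.13 and left 199 higher and 145 lower, and DESeq2's median of ratios lowered them by 1.01 and left 214 and 132. Because a share of reads moves when abundant miRNAs move, the values below are to be read against the median of 1.47, and 117 of the 569 miRNAs had a CPM ratio above 1 that would be below 1 with TMM factors. Of the 569, 148 had under 10 reads on day 0 and passed the minimum through day 3 alone, which favours a higher ratio. Among the other 421, 201 (47.7%) were higher and 57 (13.5%) lower, with a median of 0.87, and it was 0.93 for the 407 that reached 10 reads on each day. Every count of list members, hairpin arms or seeds given here is to be read against these shares, 58.5% higher and 10.0% lower of all tested miRNAs, or 47.7% and 13.5% of those with at least 10 reads on day 0.

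**Figure D1:**
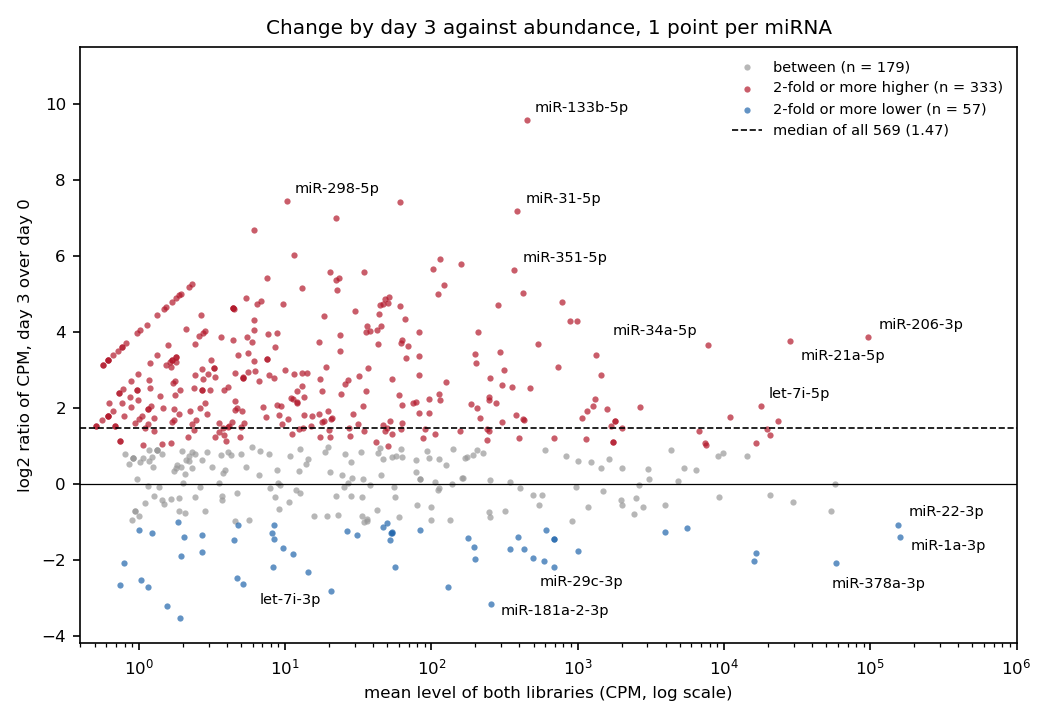
Each point is 1 of the 569 miRNAs, with the mean level of the day 0 and day 3 libraries in CPM on a log scale and the log2 ratio of CPM, day 3 over day 0, on the vertical axis. Red points (333) are 2-fold or more higher, blue points (57) 2-fold or more lower, grey points lie between, and the dashed line is the median of 1.47; the slanted row of points at the upper left comes from miRNAs at or near 0 reads on day 0.

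A large part of the library changed hands. Between day 0 and day 3, 43.3 percentage points of the reads moved from one miRNA to another, from 278 miRNAs whose share was smaller to 778 whose share was larger. The losses were concentrated, since 10 miRNAs accounted for 95.5% of them and miR-1a-3p and miR-22-3p alone for 25.64 points. The gains were spread more widely, with the first 10 accounting for 78.9%. The 333 higher miRNAs went from 10.3% of the day 0 reads to 50.7% of those of day 3, and the 57 lower ones from 61.5% to 23.3%. Both sets were picked by the ratio of day 3 to day 0 itself, so the direction of these shares was fixed by the choice. The library of day 3 was less dominated by a few miRNAs, as 6 miRNAs made up 50% of its reads against 3 on day 0, and 36 made up 90% against 25.

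The ratio depended on abundance. The 18 miRNAs with a mean of 10000 CPM or more held 85.5% of the reads on day 0 and 77.7% on day 3, and 8 of them were higher, 5 lower and 5 between, with a median log2 ratio of 0.36. In the class of 1000 to 10000 CPM, 19 of 45 were higher and 3 lower, with a median of 0.66, and the class went from 11.8% to 17.6% of the reads. The class of 100 to 1000 CPM had the widest spread, with an interquartile range of 2.91 and values from -3.17 (miR-181a-2-3p) to 9.57 (miR-133b-5p), and 44 of its 86 members were higher and 14 lower. In the classes of 10 to 100 and 1 to 10 CPM the medians were 1.47 and 1.68, and 96 of 160 and 130 of 213 members were higher. A rare miRNA passes the minimum of 10 reads more readily when it is high in 1 library, so counts in the lowest classes follow in part from the selection. Among the 309 miRNAs with a mean of at least 10 CPM, which limits this, 167 (54.0%) were higher and 35 (11.3%) lower, with a median of 1.22.

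**Figure D2:**
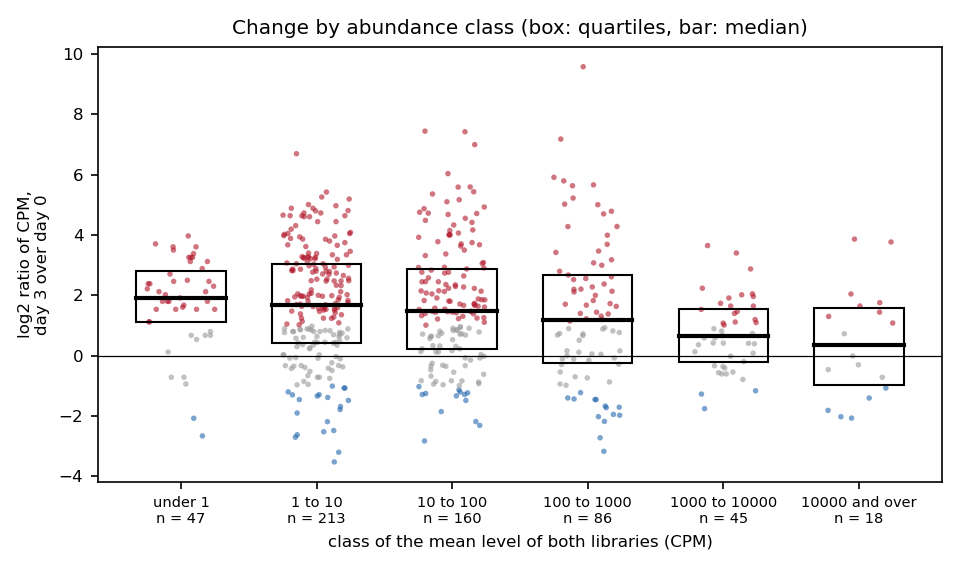
The log2 ratio of CPM, day 3 over day 0, is plotted for the 569 miRNAs in 6 classes of their mean CPM, with 1 point per miRNA (red 2-fold or more higher, blue 2-fold or more lower), a box for the quartiles and a bar for the median. The median goes from 1.68 in the class of 1 to 10 CPM to 0.36 in the class of 10000 CPM and over.

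The miRNAs of the mature fiber were lower on day 3. miR-1 and miR-133a, which promote and maintain the differentiated state of muscle, together held 28.5% of the reads before injury, 9.31% on day 1 and 10.2% on day 3, a log2 ratio of -1.49 between day 3 and day 0, and 5 of their 6 tested members were 2-fold or more lower and none higher, against 10.0% lower of all tested miRNAs. miR-1a-3p had 1987261 reads (233587 CPM) in uninjured muscle, 474135 (73841 CPM) on day 1 and 862904 (88096 CPM) on day 3, and was 2.65-fold lower on day 3 than on day 0. By the deposited expression values, whose unit is not given, it stood at 160688 on day 0 and 152274 on day 3. Their log2 ratio of -0.08 did not pass 2-fold. Ratios of these values were taken without dividing them by library totals, which were 2583553 on day 0 and 3688064 on day 3. Column and scaling thus changed at once, and division by these totals would lower each such ratio. The CPM of miR-1a-3p was low on both injured days and somewhat less so on day 3. miR-133a-3p had 25869 CPM on day 0 and then 12222 on day 1 and 7340 on day 3, and was 3.52-fold lower. Its deposited expression values, not divided by a library total, had a log2 ratio of -0.89. In contrast to miR-1a-3p, its day 3 CPM was the lowest of the 3 libraries. miR-1b-5p was 4.08-fold lower, at 25827 CPM on day 0 and 6337 CPM on day 3.

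miR-499-5p lies in an intron of Myh7b, a myosin heavy chain gene, and had 316 CPM before injury, 184 on day 1 and 80.2 on day 3, which was 3.94-fold lower. miR-208b-3p, from an intron of the slow myosin gene Myh7, was near the detection limit, with 4 reads on day 0 and 10 on day 3. miR-486, which is enriched in muscle and in erythroid cells, had 1015 CPM for miR-486a-5p in uninjured muscle, 423 on day 1 and 370 on day 3, and 3 of the 4 miR-486 members were lower and none higher. The reads of miR-486a-5p and miR-486b-5p were identical in every library, so their sum counts the same reads more than once and they make up 2 of the 3. The erythroid miR-451a was 1.76-fold higher, at 7099 CPM on day 0 and 12479 CPM on day 3, although with TMM or median-of-ratios factors its log2 ratio of 0.81 was -0.32 or -0.20.

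Other abundant miRNAs of the uninjured muscle were also lower. miR-378a-3p, whose gene lies within that of a coactivator of mitochondrial metabolism, had 93569 CPM on day 0 and then 57213 on day 1 and 22260 on day 3 and was 4.20-fold lower, moving from the rank of 3 to 13 in the library. The miR-378 list as a whole had 3 of 4 tested members lower, and its share of the reads changed by -7.28 percentage points. The log2 ratio of -2.05 for the list was -0.61 with the deposited expression values, which were not divided by a library total. miR-22-3p, from an exon of its host transcript Mir22hg at chr11:75463716-75463810 (GRCm38), had 210971 CPM before injury, 129422 on day 1 and 100095 on day 3 and was 2.11-fold lower, yet its rank was 2 in both libraries. With the deposited expression values, not divided by a library total, its log2 ratio was -0.05 and did not pass 2-fold. That ratio changed both the column and the scaling. Division by the library totals would lower it, though not past 2-fold. miR-26a-5p was lower by less than 2-fold, from 66851 CPM to 40546 CPM. Its log2 ratio of -0.72 was -1.85 with TMM factors and -0.07 with the deposited expression values, not divided by a library total. Of the 11 tested miR-30 miRNAs, 4 were lower and 1 higher (8 and none with TMM or median-of-ratios factors), against 10.0% lower among all tested miRNAs, with miR-30c-5p at 791 CPM on day 0 and 205 CPM on day 3 and miR-30a-5p at 1552 and 459 CPM.

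The transcripts of regenerating muscle showed the largest gain in reads. miR-206-3p, which promotes myoblast differentiation, had 105359 reads (12384 CPM) in uninjured muscle, 30697 (4781 CPM) on day 1 and 1763128 (180001 CPM) on day 3. It was thus lower on day 1 and 14.5-fold higher on day 3 than on day 0, and it went from the rank of 10 to 1 and gained 16.76 percentage points of all reads. Its deposited expression values were 63257 on day 0, 26123 on day 1 and 168191 on day 3. Their log2 ratio on day 3 was 1.41, against 3.86 from the reads. These values were not divided by library totals, which were larger on day 3 (3688064) than on day 0 (2583553). Division by these totals would bring the ratio below 2-fold, so the 2-fold call for miR-206-3p would not hold on that scale. Its passenger arm, miR-206-5p, had 0, 2 and 148 reads, which puts day 3 at least 42.8-fold above the 3 reads taken as the floor on day 0. Mir206 lies at chr1:20679010-20679082 and Mir133b at chr1:20682769-20682887 on the plus strand, both in exons of the lincRNA Gm28653 (GRCm38, GENCODE M21). From this transcript miR-133b-3p had 1240 CPM on day 0 and 1644 CPM on day 3, a log2 ratio of 0.41 that was below 0 with each of the 3 other scalings. miR-133b-5p went from 10 to 8779 reads, so that the 4 miRNAs of this locus spanned 9.17 log2 units.

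miR-31, which in satellite cells represses the mRNA of the myogenic factor Myf5, had both arms higher, with 45, 127 and 7503 reads of miR-31-5p on days 0, 1 and 3. The 5p arm alone was 145-fold higher on day 3 than on day 0. The imprinted loci H19, Igf2 and Mest, whose transcripts are abundant in fetal and growing tissue, hold miR-675, miR-483 and miR-335, and all 6 of these miRNAs were higher, with a median log2 ratio of 3.21. miR-335-3p, in an intron of Mest at chr6:30741299-30741396 (GRCm38), had 48 reads on day 0 and then 205 on day 1 and 3061 on day 3 and was 55.4-fold higher. miR-483-5p had 123, 65 and 1463 reads. The miR-483 and miR-675 miRNAs were below their day 0 CPM on day 1 and above it on day 3.

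Within the imprinted Dlk1-Dio3 cluster of chromosome 12, 42 of 78 tested miRNAs were higher, 8 were lower and 28 lay between. This was near the 58.5% and 10.0% of all tested miRNAs, and the median log2 ratio of 1.23 was below their 1.47. Of the 61 members with at least 10 reads on day 0, 29 were higher and 8 lower. The median of these 61 was 0.87, as for all 421 such miRNAs. The summed reads went from 0.457% to 0.989% of the library, a log2 ratio of 1.11 that was -0.02 with TMM factors, with which 19 members were higher and 19 lower. miR-539-5p, at 203 and 47 reads, had a log2 ratio of -2.31 and miR-154-3p, at 36 and 664 reads, one of 4.00. Ratios beyond these were seen only in members with 3 or fewer reads in 1 library. miR-411-5p held the most reads of the cluster on day 0, at 27.7%, and miR-127-3p, an antisense partner of the Rtl1 gene, on day 3, at 25.6%. miR-127-3p had a log2 ratio of 1.53, whereas miR-434-3p from the same part of the cluster had 4831 reads on day 0 and 2101 on day 3 and a log2 ratio of -1.40. miR-541-5p went from 209 to 3825 reads and miR-409-3p from 83 to 1521. Members of the cluster were therefore found on both sides.

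miR-21a-5p, which is induced by injury and inflammation in many tissues, showed the second largest gain in reads. It had 32885 reads (3865 CPM) before injury, 122768 (19120 CPM) on day 1 and 514881 (52565 CPM) on day 3, and was 13.6-fold higher on day 3. The log2 ratio of 3.77 was 2.30 with the deposited expression values, which were not divided by a library total. Its CPM was above day 0 on both injured days and higher on day 3 than on day 1. Its hairpin lies in an exon of Vmp1 at chr11:86584067-86584158 (GRCm38). miR-34a-5p, a target of p53 that restrains the cell cycle, had 1147 CPM in uninjured muscle, 5155 on day 1 and 14370 on day 3 and was 12.5-fold higher. All 7 tested miRNAs of the miR-34 and miR-449 family were higher, with a range of log2 ratios of 3.65 to 5.36, and 5 of these had at least 10 reads on day 0. These include miR-449a-5p, with the same GGCAGUG seed and 27, 77 and 909 reads.

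Clusters tied to cell proliferation were higher in every tested member on the CPM scale. All 12 tested miRNAs of the miR-17 to miR-92a cluster and its paralog, which Myc and E2F factors activate, were higher with a median log2 ratio of 2.94, and so were all 6 of the miR-106b, miR-93 and miR-25 cluster in the Mcm7 gene, whose median was 2.34. With TMM factors, 9 of the 12 and 4 of the 6 were still 2-fold or more higher, and 8 of the 12 and 3 of the 6 had at least 10 reads on day 0. miR-18a-5p went from 32 to 2215 reads, with 620 on day 1, a 60.1-fold difference between days 3 and 0. miR-92a-3p, the member with the most reads, was 4.04-fold higher, at 1062 CPM on day 0 and then 3929 on day 1 and 4290 on day 3, and its log2 ratio of 2.01 was 0.88 with TMM factors. miR-221 and miR-222, which repress the cell cycle inhibitor p27, were higher in all 3 tested arms. miR-222-3p had 87.0 CPM before injury, 1106 on day 1 and 1688 on day 3, a 19.4-fold difference.

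Genomic neighbours behaved alike in some clusters and not in others. At chr14:115043684-115044496 (GRCm38), the miR-17 to miR-92a cluster, 10 of 10 tested miRNAs were higher (6 of 6 with at least 10 reads on day 0), and at chrX:7237695-7248440, in the Clcn5 introns, 9 of 9 were higher (6 of 6). At chrX:53048008-53054327, which holds miR-322, miR-503, miR-450, miR-542 and miR-351, 7 of 12 were higher and none lower, near the 58.5% of all tested miRNAs. The 12 had log2 ratios from 0.08 to 5.63. miR-322-5p, which acts with miR-503 to arrest the cell cycle in differentiating myoblasts, had 4702 CPM on day 0 and 4968 CPM on day 3, and its log2 ratio of 0.08 was below 0 with each other scaling. miR-351-5p, from the same cluster, went from 124 to 7070 reads with 466 on day 1. The list of miR-466, miR-467, miR-669 and miR-297 miRNAs, many of which an Sfmbt2 intron on chromosome 2 encodes, was drawn up by name and not by position. Of its 42 tested members, 41 were higher and 1 (miR-669c-5p) lower. Only 15 of the 42 had at least 10 reads on day 0, and 14 of these were higher. With TMM factors 37 of the 42 were higher and 1 lower. Several of these rows held the same reads, so they do not count as separate observations. Their sum was 903 reads in uninjured muscle, 9231 on day 1 and 10391 on day 3, and miR-297c-5p had 0, 383 and 440 reads, at least 127-fold above the floor on day 3.

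**Figure D3:**
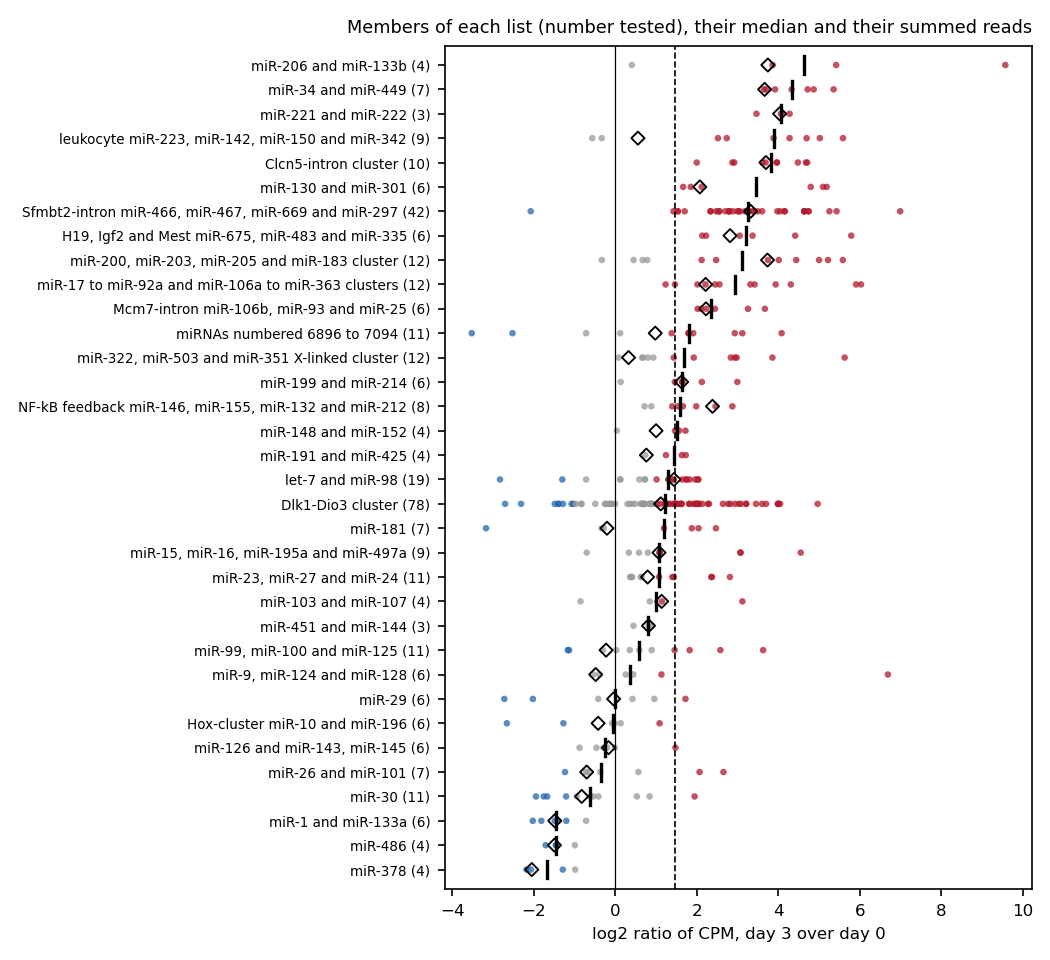
Each point is a tested miRNA in the lists with at least 3 tested members, placed by its log2 ratio of CPM, day 3 over day 0 (red 2-fold or more higher, blue 2-fold or more lower, grey between). The short bar is the median of the members, the diamond is the ratio of their summed reads and the dashed line is the median of all 569 miRNAs, 1.47; the diamond lies far from the bar where 1 abundant member differs from the rest, as in the leukocyte list (0.55 against 3.88).

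The let-7 miRNAs, which repress growth genes such as Lin28 and Ras and are high in differentiated cells, gained 10.9 percentage points of the reads, going from 6.35% on day 0 to 11.3% on day 1 and 17.2% on day 3. Of 19 tested let-7 and miR-98 miRNAs, 11 were higher and 2 lower, near the 58.5% and 10.0% of all tested miRNAs. All 19 had at least 10 reads on day 0, and of the 421 such miRNAs 47.7% were higher and 13.5% lower. The median log2 ratio of the 19, 1.30, lay below the 1.47 of all tested miRNAs but above the 0.87 of those 421. With TMM factors none of the 19 was 2-fold or more higher and 5 were lower, and with median-of-ratios factors 2 were higher and 3 lower. The 10 members with the GAGGUAG seed moved within a narrow range, from 0.59 (let-7k) to 2.04 (let-7i-5p). let-7c-5p had 11273 CPM on day 0 and then 24541 on day 1 and 35221 on day 3, and let-7i-5p had 6966, 20023 and 28694 CPM. Both were in the order day 0, day 1, day 3. let-7d-5p was between, at 10788 CPM on day 0 and 17811 CPM on day 3, and its log2 ratio of 0.72 was -0.41 with TMM and -0.29 with median-of-ratios factors.

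**Figure D4:**
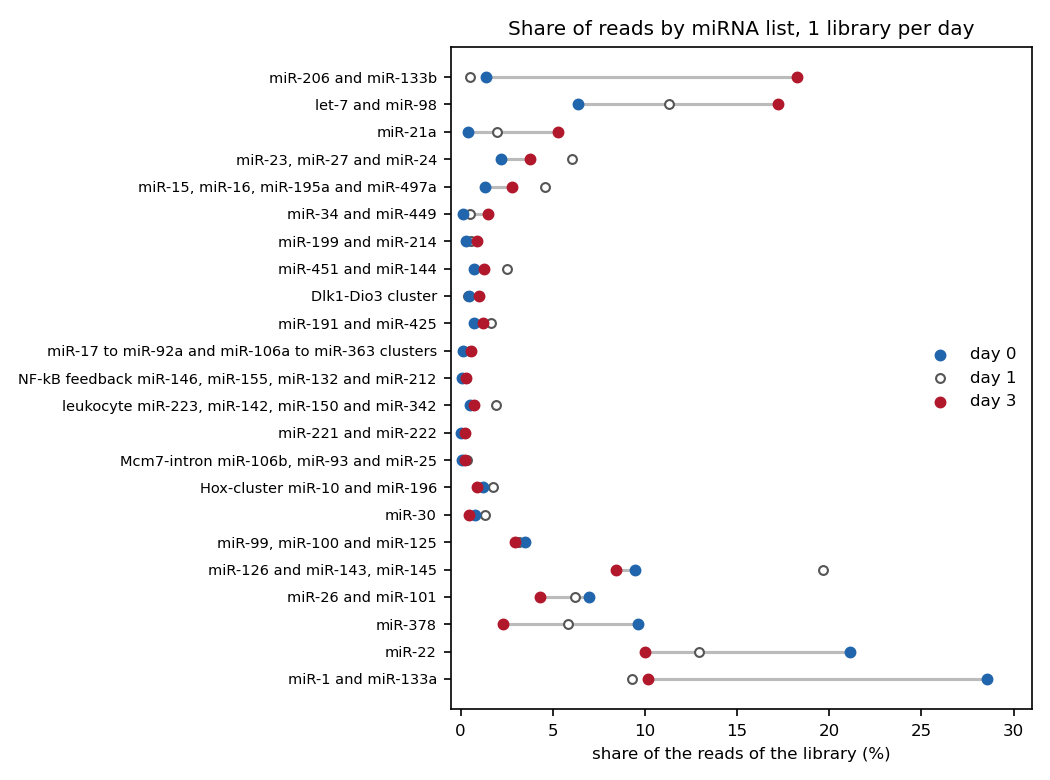
Share of the reads of the library in percent for the miRNA lists whose share moved by 0.2 percentage points or more, with day 0 in blue, day 1 as open circles and day 3 in red, 1 library per day. miR-206 and miR-133b (1.36% to 18.3%) and let-7 (6.35% to 17.2%) gained the most, and miR-1 with miR-133a (28.5% to 10.2%) and miR-22 (21.1% to 10.0%) lost the most.

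The leukocyte list held miRNAs on both sides of their day 0 CPM. All 7 tested miRNAs of the myeloid and pan-hematopoietic miR-223 and miR-142 and the leukocyte miR-342 were higher, against 58.5% of all tested miRNAs. One of them, miR-142b, had 0 reads on day 0 and passed the minimum through day 3 alone. Of the 8 list members with at least 10 reads on day 0, 6 were higher, against 47.7% of all such miRNAs. The lymphocyte miR-150-5p was not higher, at 4733 CPM before injury, 8307 on day 1 and 3197 on day 3. Its log2 ratio of -0.57 was -1.70 with TMM factors. Because miR-150-5p held 94.1% of the reads of the miR-223, miR-142, miR-150 and miR-342 list on day 0, that list as a whole had a log2 ratio of 0.55, which was -0.58 with TMM and -0.45 with median-of-ratios factors, while the median of its 9 members was 3.88. miR-342-3p had 140 CPM in uninjured muscle, 581 on day 1 and 802 on day 3. Among miRNAs induced by NF-kB and CREB signaling, miR-146a-5p had 345 CPM on day 0 and then 1999.5 on day 1 and 2524 on day 3, and 6 of the 8 tested members of this list were higher and none lower, against 58.5% of all tested miRNAs. Its member median lay 0.12 above the 1.47 of all tested miRNAs, and with TMM factors 2 of the 8 were higher. miR-155-5p was between, at 132 CPM on day 0 and 217 CPM on day 3, and its log2 ratio of 0.72 was below 0 with TMM and median-of-ratios factors.

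On the CPM scale, 5 of the 6 tested vascular miRNAs were within 2-fold of day 0 and 1 was higher, whereas with TMM or median-of-ratios factors 5 of the 6 were lower. The endothelial miR-126a-3p had 57836 CPM before injury, 127912 on day 1 and 57349 on day 3, and the smooth muscle miR-143-3p had 34278, 62189.5 and 24829 CPM. Both were highest on day 1, and their log2 ratios of -0.01 and -0.47 between day 3 and day 0 were -1.14 and -1.60 with TMM factors. The fibroblast and mesenchymal miR-199 and miR-214 were higher in 5 of 6 tested arms, against 58.5% of all tested miRNAs, with miR-214-3p going from 593 to 5442 reads and miR-199a-5p from 1077 to 2963 CPM, while miR-199b-5p, at 276 and 348 reads, was between. With TMM factors 1 of the 6 was higher, 1 lower and 4 between. miR-199a-3p and miR-199b-3p held the same reads in every library and count here as 2 of the 5. The median of the list lay 0.17 above that of all tested miRNAs. All 6 had at least 10 reads on day 0, and their median was 1.64 against 0.87 for the 421 such miRNAs. miR-29, which represses collagen mRNAs, summed to 3006 CPM on day 0 and 2919 CPM on day 3, a log2 ratio of -0.04 that was -1.17 with TMM factors. Its members parted, with 1 higher, 2 lower and 3 between, and with TMM factors none was higher and 3 were lower.

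Among miRNAs usually found in epithelia, the miR-200 family and the miR-183, miR-96 and miR-182 cluster were higher, with 8 of 12 tested members of the list higher and none lower, against 58.5% of all tested miRNAs. This list, which is wider than the 7 markers above, summed to 49.0 CPM on day 0 and 653 CPM on day 3, and with TMM factors 7 of the 12 were higher and 1 lower. miR-182-5p had 54 reads in uninjured muscle, 117 on day 1 and 2320 on day 3, and miR-183-5p had 57, 29 and 2103. Their day 3 values stood above both other libraries. The skin and stratified epithelium miRNAs miR-203 and miR-205 were between, with 161 and 319 reads of miR-203-3p and 6 and 11 of miR-205-5p. miR-200c-3p had 38 reads on day 0 and then 1015 on day 1 and 706 on day 3. The liver miRNA miR-122-5p was at 6.46 CPM on day 0 and 15.9 CPM on day 3. Outside the lists, miR-7a-5p went from 463 to 14689 reads (5219 on day 1) and miR-652-3p from 1958 to 23816 (7381 on day 1), both chosen after their values were seen.

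The seed did not fix the size of the change. Of the 52 seeds shared by 2 or more tested miRNAs, 20 had all members higher, 1 (UCCCUUU, miR-204-5p and miR-211-5p) had all members lower and 2 had members on both sides, and with TMM factors these counts were 10, 6 and 3. The median span between members was 1.54 log2 units. For the AGCACCA seed the span was 3.75, since miR-29c-3p went from 949 CPM on day 0 to 410 on day 1 and 233 on day 3, miR-29a-3p from 1716 to 2267 and 2294, and miR-29b-3p from 99.4 to 263 and 328. These 3 miRNAs can pair with the same sites, and the members were 2-fold or more lower, between and higher in turn, with the log2 ratio of miR-29a-3p (0.42) below 0 under each other scaling. For the CCCUGAG seed, miR-125b-5p (0.59), miR-125a-5p (1.82) and miR-351-5p (5.63) spanned 5.04. For the AGCAGCA seed, the log2 ratio was -0.70 for miR-195a-5p, 1.08 for miR-16-5p (-0.05 with TMM factors) and 3.07 for miR-15b-5p. The AAAGUGC and AUUGCAC seeds of the miR-17 and miR-92a groups, in contrast, had 5 of 5 members higher each, of which 4 and 1 were still higher with TMM factors.

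Simple features of the sequence differed little between the classes. The median GC content was 50.0% for the 270 higher miRNAs with a RefSeq entry, 47.8% for the 43 lower ones and 47.6% for the 158 between. The median length was 22 nt in each class. A first base of U was present in 40.0%, 41.9% and 44.3%.

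Both arms of 1 hairpin were tested for 164 hairpins. Both arms were higher in 65, both were lower in 8 and neither passed 2-fold in 25, while in 61 only 1 arm passed it. With TMM factors both arms were higher in 37 and both lower in 27. The log2 ratios of the arms differed by a median of 1.02, by less than 1 in 81 hairpins and by more than 3 in 17. Across the 164 pairs, which share libraries and are no replicates, Pearson's r was 0.59 and Spearman's rho was 0.59. In 5 hairpins (let-7i, miR-1249, miR-300, miR-328 and miR-409) the arms passed 2-fold in opposite directions. Of these, miR-328 and miR-409 did so with TMM factors as well, among 9 hairpins that did so on that scale. Some of these arms had few reads. miR-409-5p had 25 and 11 reads on days 0 and 3, and its counting interval (-2.56 to -0.31) did not clear 2-fold. Nor did that of miR-300-5p (-1.59 to -0.58), and miR-1249-5p had 4 reads on day 0. let-7i-3p had 309 reads before injury, 572 on day 1 and 50 on day 3, while let-7i-5p had 59260, 128568 and 281056. Thus the 3p arm was low on day 3 only.

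The arm with more reads switched in 14 hairpins, and in 7 of these the exact interval of the 5p share left out 50% on both days (miR-299a, miR-30e, miR-335, miR-338, miR-466b, miR-543 and miR-574). In the other 7 the interval held 50% on at least 1 of the days, and miR-466b had only 6 reads on day 0. The miR-466b-3p reads were the same as those of miR-466c-3p and miR-466p-3p, and the miR-466b-5p reads as those of miR-466o-5p. The miR-466b share is thus not that of 1 hairpin alone. In miR-335 the 5p arm held 85.8% of the reads of the hairpin on day 0 (exact binomial 95% interval 81.6 to 89.3, counting error only), 51.3% on day 1 and 33.7% on day 3 (32.4 to 35.1). In miR-574 it held 20.6% on day 0 (19.02 to 22.16), 47.0% on day 1 and 62.4% on day 3 (61.3 to 63.6). These intervals did not overlap between days 0 and 3. In miR-181a-2, whose 3p arm is distinct from that of miR-181a-1, miR-181a-2-3p went from 3890 reads on day 0 to 337 on day 1 and 496 on day 3, 9.03-fold lower by day 3, while miR-181a-1-3p went from 114 to 541 reads. The 5p arm miR-181a-5p, which both hairpins give, was between.

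**Figure D5:**
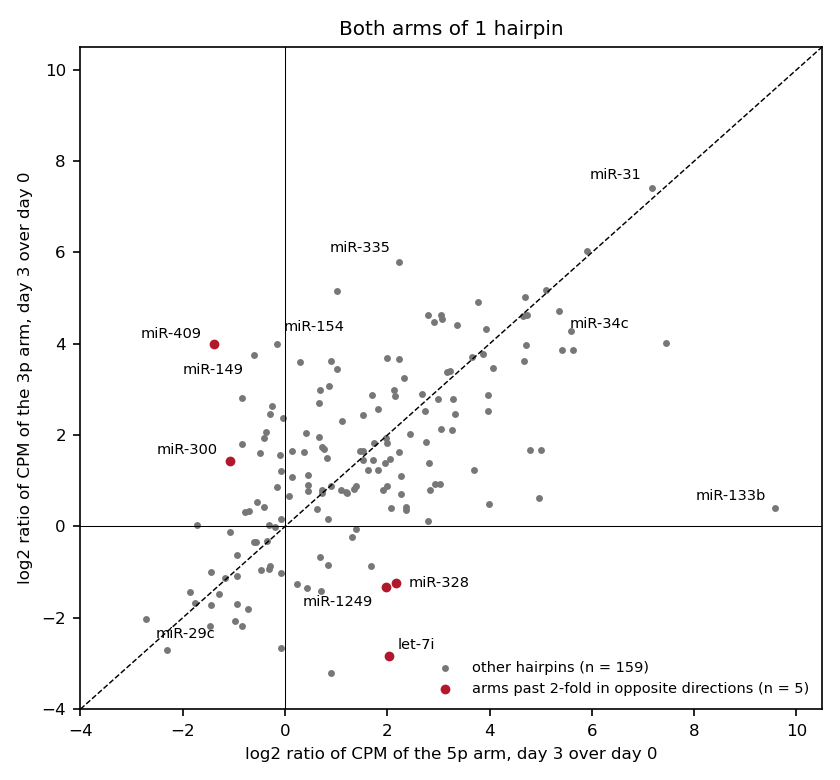
Each point is 1 of 164 hairpins with both arms tested, placed by the log2 ratio of CPM, day 3 over day 0, of its 5p arm (horizontal) and its 3p arm (vertical), and points on the dashed line have equal ratios. The 5 hairpins in red have arms 2-fold or more apart from day 0 in opposite directions, and miR-133b stands farthest from the line, at 9.57 for the 5p and 0.41 for the 3p arm.

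No miRNA with at least 10 reads on day 0 was at 0 on day 3, whereas 27 miRNAs with 0 reads on day 0 had at least 10 on day 3, up to 440 reads for miR-297c-5p. Most of these were rare on day 3 as well. One of them, miR-6923-5p, lies in an intron of Myh3, the embryonic myosin heavy chain gene, at chr11:67099804-67099875 (GRCm38), and had 0 reads on days 0 and 1 and 13 on day 3. miR-298-5p had 1 read in uninjured muscle, 6 on day 1 and 200 on day 3, a log2 ratio of 7.44 with an exact 95% interval from 4.95 to 12.75 for counting error only. The 569 miRNAs below 10 reads in both libraries together held 0.0068% of the reads on day 0 and 0.0123% on day 3. No 2-fold call is made for them, though ratios of some enter the counts of named miRNAs in the last section.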

How the data were processed

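Per the labels and the methods, small RNA of 18 to 30 nt from TA muscle, 4 samples pooled per time point, was sequenced once per day. The authors deposited a read count for each of 1138 mature miRNAs, without normalization, and an expression value, whole numbers never above the read count, which was treated as a score because its unit is not given in the sources used here. It was a median of 100% of the reads for miRNAs under 1000 reads but a median of 36.1% of the reads on day 0 and 38.9% on day 3 for miRNAs with 100000 reads or more, and was at most 168191, so ratios of the most abundant miRNAs differ between these scales. Whether it counts molecules rather than reads is not given in the sources used here. The submitters' processing notes name HISAT, Bowtie2 and the build GRCm38.p6, without their roles. The tool that counted reads per miRNA is not given in the sources used here. Groups came from the labelled time points.

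Counts were divided by the library total to give CPM. A ratio was taken with 0 reads set to 3 and 1 or 2 reads kept as they are. It was called at 2-fold for miRNAs with at least 10 reads in 1 of the 2 libraries. With 1 library per day no replicate model was fitted, so TMM and median-of-ratios factors served only as alternative scalings. Intervals are exact 95% intervals (Clopper-Pearson) and, like the floor of 3 reads, cover counting error only, since reads after PCR are not counts of independent molecules. The ratios were tested on simulated data with known changes. Read totals of 8507580 and 9795076 set the floor. The 42 lists were made from miRNA names, host genes and known roles. miRNAs named were the 10 most abundant of each library, the 10 highest and 10 lowest ratios at a mean of 10 CPM or more, the 10 largest gains and losses in CPM, and the members that carry most of the reads of each list. Other miRNAs were named after their values were seen, and the members and lists were chosen with earlier results of these data known. Clusters joined hairpins at most 10000 bases apart. Sequences came from RefSeq and positions from GENCODE M21. Alternatives were other scalings, the deposited expression values without division by a library total, a pseudocount, other read minimums and a 4-fold threshold. Scaling factors came from edgeR 4.0.16 and DESeq2 1.42.0 in R 4.3.3. All else was computed in Python 3.11.15 with scipy 1.17.1, pandas 2.3.3 and numpy 2.4.6, and plots were drawn with matplotlib 3.10.9.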

Additional observations from a re-analysis of the deposited data

Results flagged for a closer look

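Of the 474 tested miRNAs with more than 3 reads in every library, 8 were 2-fold or more higher in 1 of the injured libraries and 2-fold or more lower in the other, both against the day 0 library. miR-206-3p had a log2 ratio of -1.37 on day 1 and 3.86 on day 3. miR-675-3p, from an exon of the growth-related lincRNA H19, had -1.49 on day 1 and 2.13 on day 3, with 877 reads before injury, 235 on day 1 and 4429 on day 3. The other arm, miR-675-5p, had -1.75 and 3.05, and miR-7689-3p had -1.61 and 2.20. miR-433-3p had -1.08 on day 1 and 1.61 on day 3, and miR-380-3p had -1.44 and 1.51. let-7i-3p and miR-874-3p went the other way, with 1.29 and 1.10 on day 1 and -2.83 and -1.01 on day 3. The calls of miR-206-3p, both miR-675 arms and miR-7689-3p held on both days with TMM and with median-of-ratios factors. Those of let-7i-3p (0.35 with TMM) and miR-874-3p (0.16) on day 1, and of miR-433-3p (0.48) and miR-380-3p (0.38) on day 3, did not. With 1 library per day, the difference between the days was not tested.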

How the results depend on the processing

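The counts and the median depended on the scaling. With edgeR's TMM factors, 199 miRNAs were higher and 145 lower (57.8% of the calls higher) and the median log2 ratio was 0.34. With DESeq2's median-of-ratios factors, 214 were higher and 132 lower (61.8%), with a median of 0.47. With totals that left out the 10 most abundant miRNAs, 92 were lower, 75.5% of the calls were higher and the median was 0.99. The deposited expression values, not divided by a library total, gave 89.0% and a median of 1.64. Their total was larger on day 3 than on day 0, so division by it would lower that median. A pseudocount of 1 CPM gave a median of 1.08, and a minimum of 1 read, with more than 3 reads in 1 library, 1.22. A minimum of 100 reads left 195 higher. At 4-fold, 214 were higher and 18 lower (92.2%). Centred on the median of the tested miRNAs, a setting chosen after the values were seen, 171 were higher and 170 lower (50.1%). With TMM factors the sign turned for 9 of 42 list ratios and 15 of 95 named miRNAs. Of those with a ratio past 2-fold on CPM, it turned for the miR-15, miR-16, miR-195a and miR-497a list (-0.060) and the Dlk1-Dio3 list (-0.018). Among single miRNAs past 2-fold it turned for miR-16-5p (-0.053), miR-24-3p (-0.058) and miR-6967-5p (-0.11). Without passing 2-fold on CPM, it also turned for the leukocyte (-0.58), miR-23, miR-27 and miR-24 (-0.34), miR-451 and miR-144 (-0.32), miR-191 and miR-425 (-0.37), miR-322 (-0.81) and miR-148 and miR-152 (-0.13) lists and 1 list of other miRNAs (-0.15). Of the 51 named miRNAs that were higher, 26 were still 2-fold higher with TMM factors, as were all 20 lower ones. With the deposited expression values, 3 of the 5 lower lists no longer passed 2-fold, miR-1 and miR-133a (-0.49), miR-22 (-0.05) and miR-378 (-0.61). Nor did 6 of the 20 lower and 4 of the 51 higher named miRNAs, with miR-1a-3p at -0.08. The miR-206 and miR-133b list was at 1.39. These values were not divided by library totals (2583553 on day 0 and 3688064 on day 3), so column and scaling changed at once. Division by those totals would lower each ratio. The miR-378 list and, barely, the miR-1 and miR-133a list would again be 2-fold lower, whereas the miR-22 list would not. The miR-206 and miR-133b list would no longer be 2-fold higher. The cause was not tested. Counting identical rows once was also added after the values were seen and changed no count by 1.5 times. No paired analysis was possible because each day has 1 library, and leaving out a replicate was not possible for the same reason. miRNAs near the limit of 3 reads cannot be ranked at this depth.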
